A study of Mus musculus with 24 samples.

Results

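The response of IKKβ-deficient macrophages to LPS was read from 6 of the 24 arrays of the series, namely 3 arrays labelled 4 h and 3 labelled 0 h, chosen by their sample titles. All cells were bone marrow-derived macrophages (BMDMs) of C57BL/6 background, grown from marrow of mice aged 8 to 10 weeks for 7 days in medium with 20% L929-conditioned medium, a source of the macrophage growth factor M-CSF. IKKβ-deficient cells came from Ikkβ F/F:Mx1-Cre mice, in which Cre is driven by the interferon-inducible Mx1 promoter, and the 6 wt arrays set beside them came from Ikkβ F/F mice, which carry the same floxed allele without Cre. LPS was given at 100 ng/ml. Arrays with the same replicate number in their labels, 1 per genotype and time, lay together on a BeadChip. The labels give the cell line as RAW264.7, macrophage-like cells of mouse, but the study's methods describe BMDMs and were followed here. Neither source says whether replicates came from separate mice or cultures, and the p-values therefore cover the spread of these arrays alone, which may be technical.

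LPS, a lipid of the outer membrane of Gram-negative bacteria, binds TLR4, and TLR4 starts a MyD88 branch and a TRIF branch of signaling. Both reach the IKK complex, in which IKKβ phosphorylates IκB so that NF-κB dimers enter the nucleus, and both also activate MAP kinases. The TRIF branch further activates IRF3, which turns on interferon-β and then the interferon-stimulated genes. IKKβ has a sister kinase, IKKα, in the same complex.

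The probe of *Ikbkb*, the gene of IKKβ, gave a normalized signal of 196, 193 and 184 on the IKKβ-deficient arrays labelled 0 h of BeadChips 1, 2 and 3, and of 193, 225 and 232 on those labelled 4 h. The wt arrays gave 323, 415 and 471 at 0 h and 791, 601 and 665 at 4 h. Each IKKβ-deficient array lay below every wt array. No source used here states where this probe sits relative to the floxed exon. Signals are intensities after quantile normalization over the 12 arrays, and a change is a difference of their log2 values, 4 h minus 0 h.

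The arrays labelled 0 h on BeadChips 2 and 3 stood apart from the one on BeadChip 1. *Cxcl10*, an interferon-induced chemokine, had a signal of 152 on the IKKβ-deficient array labelled 0 h of BeadChip 1, but of 38212 and 33390 on those of BeadChips 2 and 3, against 34249, 26479 and 29655 at 4 h. The early activation marker *Cd69* gave 129, 15676 and 14389 at 0 h and 13507, 13010 and 12439 at 4 h. Both genes were thus as high on 2 of the 3 arrays labelled 0 h as on the arrays labelled 4 h. The wt arrays did the same, with *Cxcl10* at 206, 40861 and 36851 at 0 h. Of all 8569 genes tested, 476 were more than 1 log2 unit higher on the IKKβ-deficient array labelled 0 h of BeadChip 2 than on that of BeadChip 1, and 797 on that of BeadChip 3. Why these arrays differ was not tested, and what their cells had met before RNA was taken cannot be told from the labels. Fits below use all arrays, with each BeadChip as a block, and values without the 4 arrays labelled 0 h of BeadChips 2 and 3, fitted without the block and chosen after seeing the data, stand beside them. There the single array of BeadChip 1 stands for 0 h in each genotype and is assumed to vary like the other groups.

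**Figure D1:**
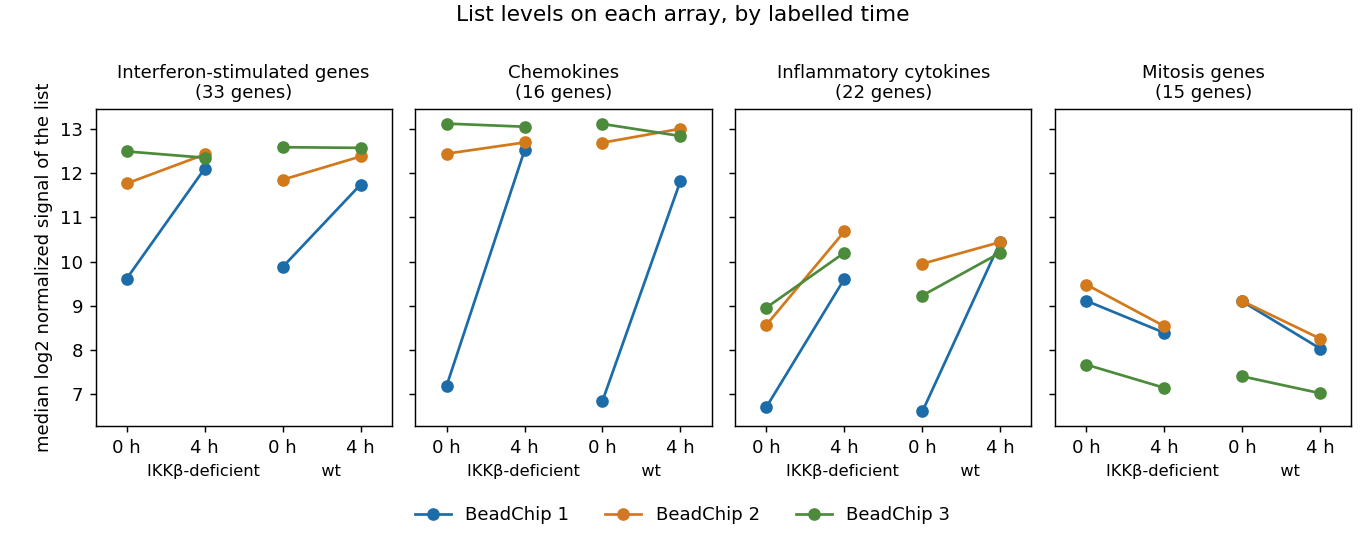
Median log2 normalized signal (y axis) of the measured genes of 4 gene lists on each of the 12 arrays, by labelled time and genotype (x axis), with lines joining arrays of one BeadChip. At 0 h, interferon-stimulated genes, chemokines and cytokines are lowest on BeadChip 1, whereas the median of the mitosis genes is lower at 4 h on all 3 BeadChips in both genotypes.

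LPS still changed 326 of the 8569 genes tested in IKKβ-deficient BMDMs (limma, Benjamini-Hochberg adjusted p under 0.05), which is 3.8% of them. There were 169 genes that rose (1.97% of genes tested) and 157 that fell (1.83%). Every one of them moved the same way on all 3 BeadChips, which choosing genes by a small p within BeadChips favours. Of all genes tested 19.9% were higher and 25.7% lower on all 3. The rises ran from 0.37 to 4.18 on the log2 scale with a median of 1.01, and the falls from -0.40 to -2.07 with a median of -0.72, while the median of all genes was -0.02. At least 2-fold changes (1 log2 unit) were found for 87 of the genes that rose and 33 of those that fell. The arrays labelled 4 h lay above all those labelled 0 h for 110 of the 169 (5.86% of all genes did so) and below them for 60 of the 157 (4.91%). With each array scaled to its median, the split was 133 rises and 188 falls. The calls rest on the block and on BeadChips 2 and 3. Without the block no gene passed (571 at an unadjusted p under 0.05), and without replicate 2 no gene passed either (1076 unadjusted). Without replicate 3 the count was 2. Without replicate 1 it was 569, of which 249 were among the 326, and leaving out single IKKβ-deficient arrays gave 3 to 121. Most of the 326 did not pass without the 4 arrays labelled 0 h. Most of the genes that did pass there were not among the 326. There 168 of the 169 and 155 of the 157 kept their direction, while of all 8569 genes tested 3877 were higher and 4692 lower. That fit shares the arrays labelled 4 h and the array labelled 0 h of BeadChip 1 with the main one. Most of these directions were thus fixed by the choice of the 326.

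**Figure D2:**
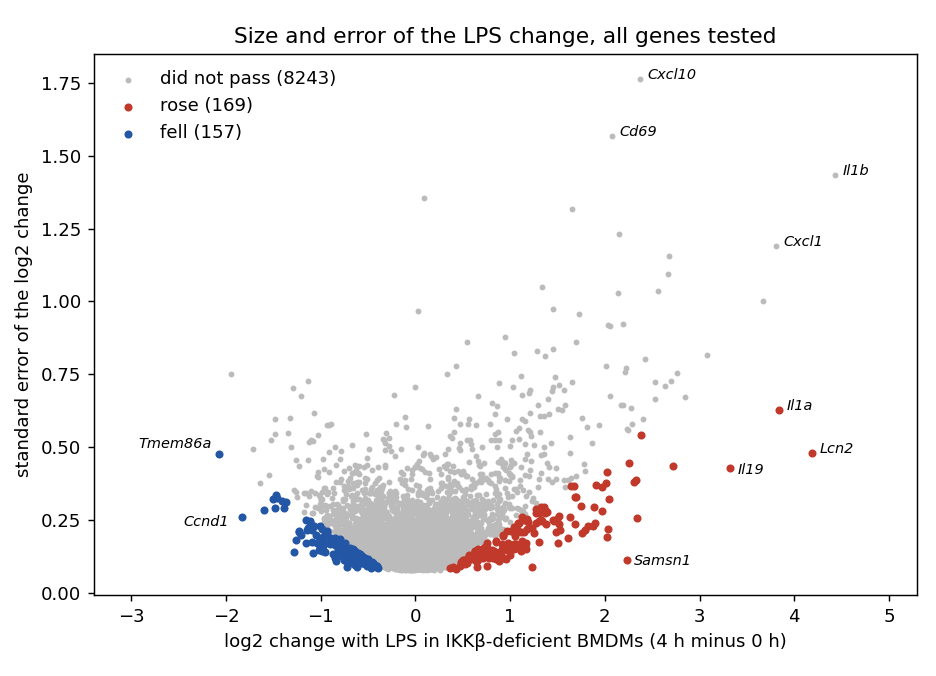
Log2 change with LPS in IKKβ-deficient BMDMs (x axis) against its standard error (y axis) for the 8569 genes tested, with the 169 genes that rose in red, the 157 that fell in blue and the rest in grey. *Cxcl10*, *Cd69* and *Il1b* have large changes with standard errors above 1.4, whereas *Samsn1* moved by 2.23 with a standard error of 0.114.

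Secreted cytokines were among the largest rises. Of 22 measured genes of inflammatory cytokines, 5 rose and none fell, with a median change of 1.004. Among all genes tested 1.97% rose and 1.83% fell, and this list, like those below, was chosen with earlier results of these data known. *Il1a* encodes interleukin-1α, an alarm cytokine that can act from the cell surface. Its signal was 85.9, 201 and 320 on the arrays labelled 0 h and 852, 5692 and 3360 at 4 h, so that the groups did not overlap, and limma gave a change of 3.84 (standard error 0.628, adjusted p = 0.018). *Il19*, an interleukin-10 relative, went from 79.6, 103 and 231 to 305, 1822 and 3402, a change of 3.32 (standard error 0.427, adjusted p = 0.011). Its 4 h level on BeadChip 1 was far below those of BeadChips 2 and 3. The 0 h signals of *Il1a* and *Il19* on BeadChip 1 were close to background, so the sizes of their changes there are less certain. *Inhba*, the subunit of activin A, rose by 2.31, from 102, 282 and 399 to 866, 1474 and 1089. *Tnfsf9*, the ligand of the costimulatory receptor 4-1BB, rose by 1.15, and *Tnfsf15*, a TNF family ligand named after its value was seen, by 0.76. *Inhba* passed also without the 4 arrays labelled 0 h (adjusted p = 0.0056), while *Il1a* (0.053), *Il19* (0.275) and *Tnfsf9* (0.16) did not, at changes of 3.45, 4.88, 3.96 and 1.47 in that order.

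The acute-phase and antimicrobial list had 5 rises and no fall among 14 measured genes (1.97% of all genes tested rose), and a median change of 1.14. *Lcn2*, lipocalin-2, which withholds iron from bacteria by binding their siderophores, had the largest change of all genes that passed. Its signal was 161, 281 and 996 at 0 h and 1681, 16316 and 9882 at 4 h (change 4.18, standard error 0.48, adjusted p = 0.0109). *Saa3*, serum amyloid A3, was already bright on the arrays labelled 0 h, at 5554, 3134 and 4745, and reached 16442, 24182 and 26882 at 4 h (change 2.34, adjusted p = 0.0109). *Fpr2*, a receptor for formylated bacterial peptides, went from 2986, 2991 and 3823 to 14190, 11573 and 10676, and its 3 arrays at each time lay close together. *Ptx3*, a secreted pattern recognition protein, rose by 1.91, with 1008 on BeadChip 3 but 294 and 235 on the others. *Cfb*, complement factor B, named after its value was seen, rose by 1.39. *Cp*, the copper-carrying ferroxidase ceruloplasmin, was not on the list and rose by 2.03 (adjusted p = 0.00628). When the 4 arrays labelled 0 h were left out, *Saa3* (adjusted p = 0.0284) and *Fpr2* (0.0421) passed, and *Lcn2* (0.111), *Ptx3* (0.255) and *Cp* (0.249) did not, all with rises of 1.99 or more.

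Stretches of promoter from RefSeq (build GRCm38.p6), each the 150 bases before the annotated start, are shown for the genes with the largest rises whose promoter holds a motif searched, to set the sites near the start of genes that rose without IKKβ beside their values. The motifs, sought on both strands in the 250 bases before and 50 after the start, were the κB consensus, the core of the interferon-stimulated response element (the letters GAAA repeated after any 2 bases), TGANTCA (AP-1) and TTGCNNAA (C/EBP). Capitals mark the matches, AP-1 in *Il1a* (chr2:129309973-129310122, minus strand), κB and interferon element in *Il19* (chr1:130940116-130940265, minus), interferon element and C/EBP in *Saa3* (chr7:46715677-46715826, minus) and C/EBP in *Inhba* (chr13:16011701-16011850, plus). No motif overlapped another in them. *Lcn2* is not printed, as its only match, of C/EBP, lies 216 bases before the start.
Il1a: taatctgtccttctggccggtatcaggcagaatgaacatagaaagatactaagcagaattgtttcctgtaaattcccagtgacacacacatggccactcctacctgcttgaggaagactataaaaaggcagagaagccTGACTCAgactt
Il19: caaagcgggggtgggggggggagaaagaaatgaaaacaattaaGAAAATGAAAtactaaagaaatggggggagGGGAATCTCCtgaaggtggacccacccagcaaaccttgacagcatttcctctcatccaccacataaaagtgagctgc
Saa3: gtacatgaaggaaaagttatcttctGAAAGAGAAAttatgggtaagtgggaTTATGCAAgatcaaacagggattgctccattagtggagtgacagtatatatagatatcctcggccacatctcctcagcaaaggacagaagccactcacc
Inhba: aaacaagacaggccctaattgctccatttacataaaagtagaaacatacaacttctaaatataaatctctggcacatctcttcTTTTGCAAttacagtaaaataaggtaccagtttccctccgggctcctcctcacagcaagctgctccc
The κB match of *Il19* lies 77 bases before the start, and the C/EBP match of *Saa3* 99 bases before it. RefSeq gave 1 promoter for 96 of the 169 genes that rose, for 110 of the 157 that fell and for 5553 of the 8569 tested. A κB match was found in 12.5%, 8.18% and 9.81% of these promoters in that order, a C/EBP match in 10.4%, 8.18% and 8.55%, an AP-1 match in 4.17%, 2.73% and 5.58%, and the interferon element in 4.17%, 0.909% and 3.53%. The shares of the genes that rose lie near those of all genes tested.

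Enzymes of inflammatory mediators also rose. In the list of prostaglandin, nitric oxide and itaconate enzymes 5 of 18 measured genes rose (1.97% of all genes tested did) and 1 fell (median change 1.02). The itaconate enzyme of the list, *Acod1*, was not among those measured. *Ptges*, the inducible prostaglandin E synthase, went from 111, 163 and 410 to 981, 1059 and 2046 (change 2.72, standard error 0.434, adjusted p = 0.0172). *Ptgs2*, cyclooxygenase-2, which makes the substrate of *Ptges*, rose from 86.9, 95.9 and 119 to 154, 268 and 212, a change of 1.04 in signals close to background, where 1 of the 3 arrays labelled 0 h detected it. *Slc7a2*, a transporter of arginine, rose by 2.25, and *Nos2*, the inducible nitric oxide synthase that uses arginine, named after its value was seen, by 1.65. *Nos2* reached 2751 and 2037 at 4 h on BeadChips 2 and 3 but 144 on BeadChip 1. *Hmox1*, heme oxygenase-1, rose by 1.17, and *Alox5ap*, the activator of leukotriene synthesis, fell by 0.73, from 16442, 12667 and 8511 to 9111, 7470 and 5749. Without the 4 arrays labelled 0 h *Ptges* (3.53, adjusted p = 0.0467) and *Slc7a2* (2.93, 0.0445) passed, while *Ptgs2* (0.11), *Hmox1* (0.183) and *Alox5ap* (0.152) did not.

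**Figure D3:**
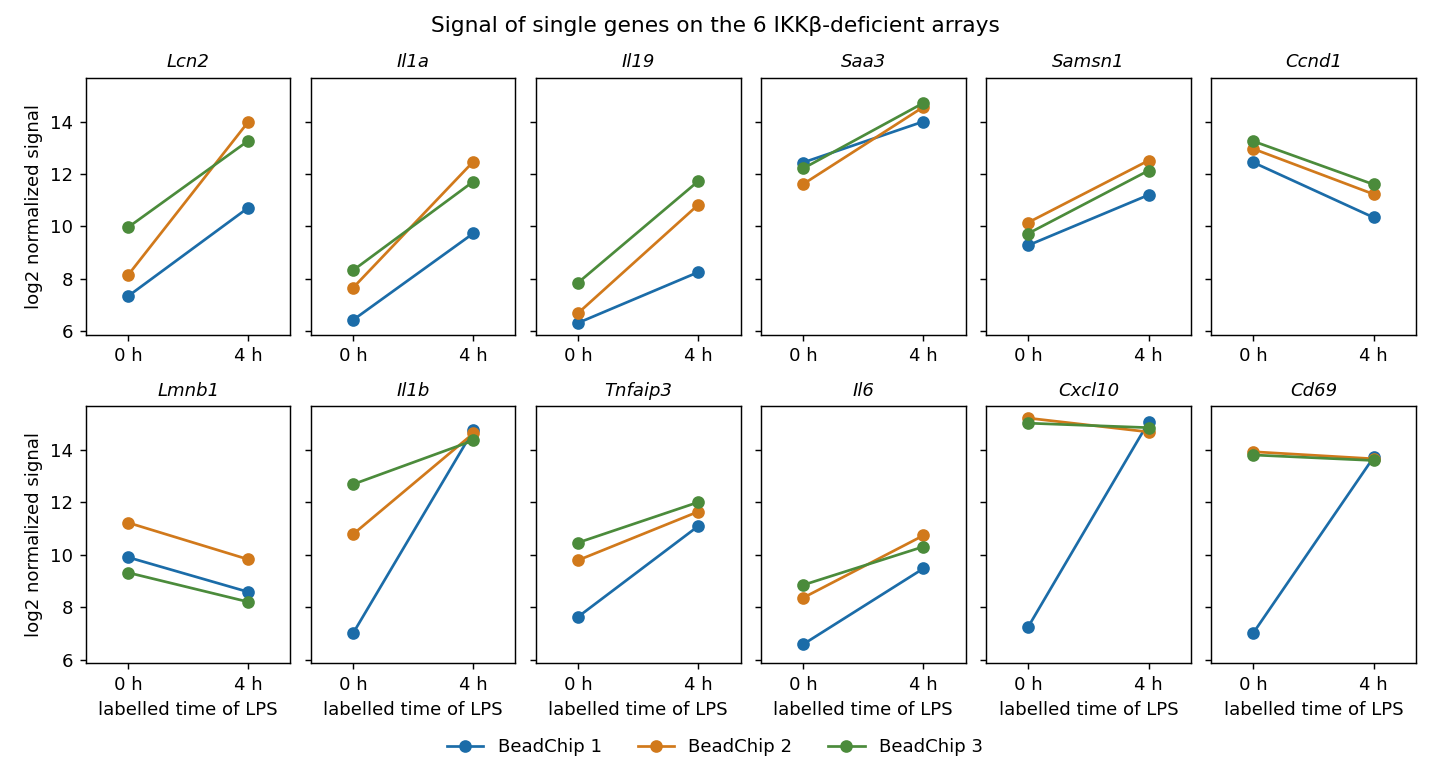
Log2 normalized signal (y axis) of 12 genes on the 6 IKKβ-deficient arrays by labelled time (x axis), with lines joining the arrays of one BeadChip. The lines of *Lcn2*, *Il1a*, *Il19*, *Saa3* and *Samsn1* rise and those of *Ccnd1* and *Lmnb1* fall on every BeadChip, whereas *Cxcl10* and *Cd69* are high at 0 h on BeadChips 2 and 3.

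Within the NF-κB pathway itself, feedback inhibitors and subunits rose. Of 12 measured feedback inhibitors 4 rose (1.97% of all genes tested did) and none fell, with a median of 1.06. *Irak3*, the inactive kinase that damps MyD88 signaling, went from 847, 698 and 878 to 3802, 2420 and 2332 (change 1.79, standard error 0.215, adjusted p = 0.0109). *Tnip1*, the ubiquitin-binding partner of A20, rose by 1.49, from 2189, 3623 and 2859 to 7897, 9178 and 6990. *Zc3h12a*, the RNase regnase-1 that cleaves cytokine mRNAs, rose by 1.28 (adjusted p = 0.041), and *Tax1bp1*, an adaptor of A20, by 0.60. *Tnfaip3*, the gene of A20, was 198, 887 and 1413 at 0 h and 2197, 3217 and 4130 at 4 h, a change of 2.29 with an adjusted p = 0.0601. Of 10 measured subunits and IκB proteins, 2 rose (median 1.05). They were *Nfkb2*, the p100 precursor, by 1.23 and *Relb*, its partner, by 1.08, and both belong to the alternative NF-κB pathway. Over the 10 genes the changes ran from 0.31 to 1.63, so some that did not pass changed as much. At an unadjusted p under 0.05 by limma 8 of the 10 were higher, as were 854 of all 8569 genes tested. *Nfkbia*, the gene of IκBα, had a change of 1.48 with an adjusted p = 0.0831, and its values on the arrays labelled 0 h ran from 1106 on BeadChip 1 to 7653 on BeadChip 3. With the 4 arrays labelled 0 h left out, *Tnfaip3* passed at a change of 3.96 (adjusted p = 0.0056), *Tnip1* (0.0336), *Zc3h12a* (0.0201) and *Relb* (0.0444) still passed, and *Irak3* (0.11), *Tax1bp1* (0.432) and *Nfkb2* (0.0768) did not.

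Upstream of NF-κB, single genes passed, as 3.8% of all genes tested did. Of 11 measured genes of the IKK complex and its activating kinases only *Map3k8*, the kinase TPL2 that feeds the ERK pathway, passed, with a rise of 1.09. None of 13 measured genes of the TLR4 complex and adaptors passed, at a median of 0.29. Of 14 Toll-like and C-type lectin receptors *Tlr1*, a partner of TLR2, rose by 1.30, and *Tlr7*, a sensor of single-stranded RNA, by 0.65, from 1658, 1371 and 1309 to 2430, 2494 and 1885. *Malt1*, the paracaspase that activates NF-κB downstream of immune receptors, rose by 2.04. *Dusp16*, a phosphatase of JNK and p38, rose by 2.01, and it was the only one of 12 measured MAP kinase phosphatases and TTP family genes to pass. Neither *Map3k8* (adjusted p = 0.0625), *Tlr1* (0.213), *Tlr7* (0.379) nor *Malt1* (0.0685) passed without the 4 arrays labelled 0 h, whereas *Dusp16* did (0.0191).

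Several transcription factors, adaptors and stress genes also rose. *Samsn1*, an adaptor protein first known from B cells, had the smallest adjusted p, with 620, 1135 and 848 at 0 h and 2352, 5853 and 4488 at 4 h (change 2.23, standard error 0.114, adjusted p = 9.81e-05). *Batf*, a basic leucine zipper factor of the AP-1 family, went from 128, 221 and 505 to 249, 689 and 1881, and *Klf2*, a factor that restrains macrophage activation, fell by 0.77. They were the only 2 of 15 measured AP-1 and immediate-early genes to pass, while 3.8% of all genes tested did. *Klf7*, a Krüppel-like factor, rose by 2.03, with 3352 on BeadChip 1 and 1158 on BeadChip 3 at 4 h. *Nupr1*, a stress-induced nuclear protein, rose by 2.03 and had 550 on BeadChip 1 and 5494 on BeadChip 3 at 0 h. *Gadd45a*, a stress and growth-arrest gene, rose by 1.76, from 346, 205 and 298 to 761, 949 and 1134. *Cdc42ep2*, an effector of the GTPase Cdc42, rose by 2.33. *Birc3*, the inhibitor of apoptosis cIAP2, was the only one of 17 survival and apoptosis genes to pass (3.8% of all genes tested did), at 0.76. *Mt2*, a metallothionein, rose by 0.66 and with *Hmox1* made up the rises among 13 genes of the NRF2 antioxidant list. *Shisa3*, named because no array labelled 0 h of these cells detected it, was at least 2.17-fold higher at 4 h (adjusted p = 0.018), measured against the lowest detected signals. Of these genes *Cdc42ep2* (adjusted p = 0.0111) passed without the 4 arrays labelled 0 h, whereas *Samsn1* (0.0753), *Batf* (0.38), *Klf2* (0.303), *Klf7* (0.14), *Nupr1* (0.163), *Gadd45a* (0.135) and *Birc3* (0.108) did not, with unchanged directions.

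Most of the genes with the largest mean changes did not pass, and their changes differed between BeadChips. Of the 50 largest rises 17 passed, although 48 were higher on all 3 BeadChips (19.9% of all genes tested were), and the median standard error of the 50 was 0.655 against 0.137 for all genes. *Il1b*, interleukin-1β, was 128, 1762 and 6617 at 0 h and 27640, 25468 and 21118 at 4 h, with changes of 7.76, 3.85 and 1.67 on the 3 BeadChips (mean 4.43, adjusted p = 0.109). The neutrophil chemokines *Cxcl1* and *Cxcl2* had mean changes of 3.81 (adjusted p = 0.101) and 3.67 (0.0742). *Il6* went from 95.7, 328 and 461 to 714, 1710 and 1270 (change 2.25, adjusted p = 0.059), and *Serpinb2*, the plasminogen activator inhibitor 2, had a change of 2.40 (0.059). In each of these 5 genes the change was largest on BeadChip 1. Without the 4 arrays labelled 0 h *Il1b* (7.59, adjusted p = 0.000393) and *Il6* (3.60, 0.0184) passed, whereas *Serpinb2* (0.0833), *Cxcl1* (0.192) and *Cxcl2* (0.168) did not.

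None of 16 measured chemokine genes and none of 33 interferon-stimulated genes passed, with median changes of 0.79 and 0.60. At an unadjusted p under 0.05 by limma 5 and 4 of them were higher, as were 854 of all 8569 genes tested. On BeadChip 1 all 33 interferon-stimulated genes were higher at 4 h, by a median of 1.57, and 21 by more than 1. On BeadChips 2 and 3 the medians were 0.30 and 0.08. *Rsad2*, the antiviral enzyme viperin, was 5339, 43539 and 51242 at 0 h and 47948, 49132 and 51242 at 4 h. Of the 33 genes, 27 were more than 1 log2 unit higher on the array labelled 0 h of BeadChip 2 than on that of BeadChip 1, and 31 on that of BeadChip 3. Chemokines behaved alike, with median changes of 2.29, 0.36 and 0.00. In the fit without the 4 arrays labelled 0 h the median changes of the interferon-stimulated genes and the chemokines were 2.17 and 2.96, against -0.05 for all genes tested. The lists of acute-phase genes and mitosis genes differed less between BeadChips, with medians of 1.33, 1.16 and 0.91 and of -0.67, -1.15 and -0.66.

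**Figure D4:**
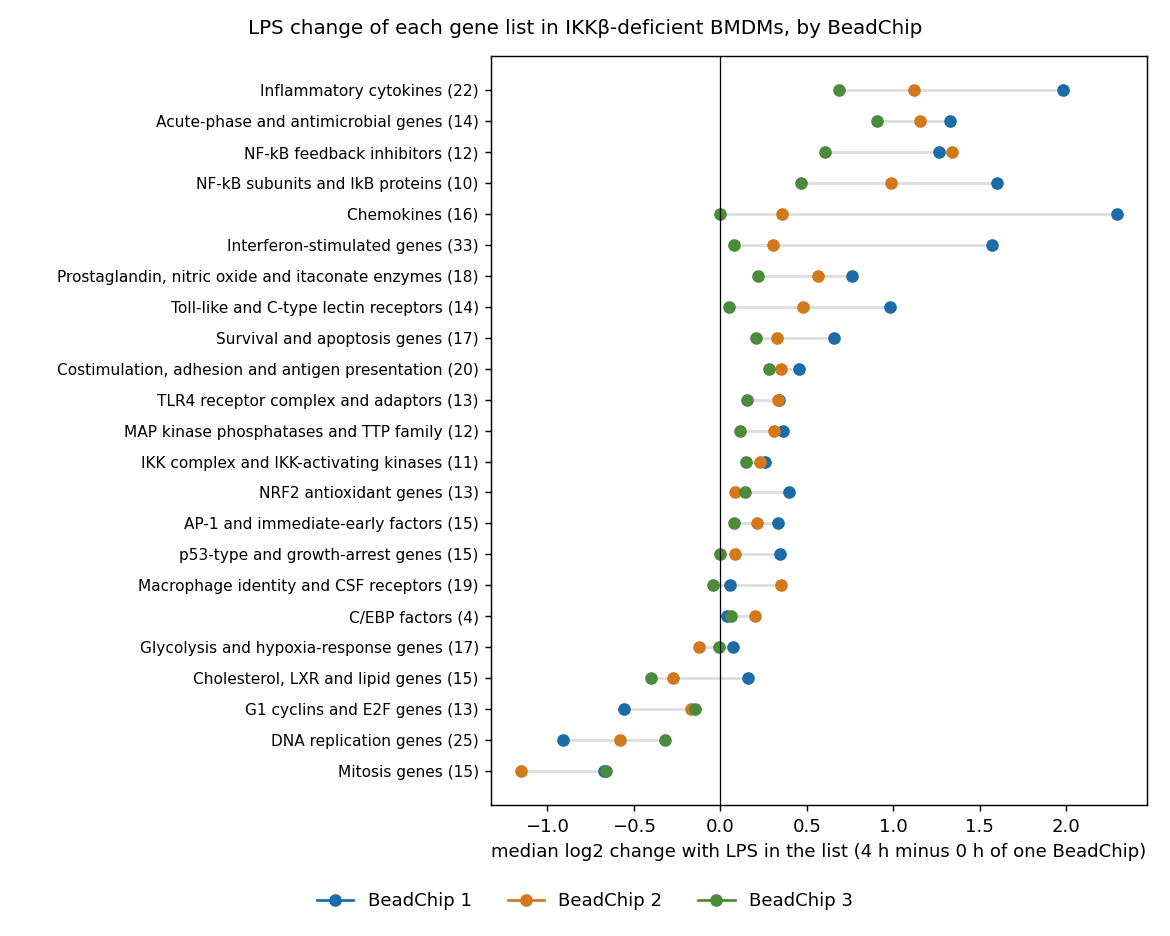
Median log2 change with LPS (x axis, 4 h minus 0 h of one BeadChip) of 23 gene lists (y axis, number of measured genes in brackets) in IKKβ-deficient BMDMs, with 1 point per BeadChip. Chemokines and interferon-stimulated genes have their points for BeadChips 2 and 3 between 0.00 and 0.36, whereas acute-phase, DNA replication and mitosis genes lie on one side of 0 on all 3.

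Cell cycle genes were among those that fell. Of 15 measured mitosis genes 5 fell (1.83% of all genes tested did) and none rose, with a median of -0.91. On all 3 BeadChips 14 of the 15 were lower, as were 25.7% of all genes tested. Of 25 DNA replication genes 3 fell and none rose, at a median of -0.62, and 18 were lower on all 3. *Ccnd1*, cyclin D1, which drives entry into the cell cycle and is induced by M-CSF, went from 5573, 7985 and 9775 to 1298, 2405 and 3110 (change -1.83, standard error 0.26, adjusted p = 0.0135), with no overlap. *Cenpa*, the histone variant of centromeres, went from 2073, 6237 and 2413 to 1060, 2570 and 880 (change -1.23, adjusted p = 0.0204). The mitotic kinases *Cdk1* and *Plk1* fell by 1.01 and 0.99, *Birc5*, survivin, by 1.01, and *Prc1*, a spindle protein named after its value was seen, by 1.01. *Birc5* was 968, 1300 and 346 at 0 h and 525, 586 and 174 at 4 h. Thus the array labelled 0 h of BeadChip 3 lay below the 4 h arrays of BeadChips 1 and 2, and the fall is seen only within a BeadChip. *Anln*, an actin-binding protein of cell division, fell by 1.37 and *Cdca3*, a trigger of mitotic entry, by 1.26.

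The replication genes that fell were *Pold1*, the catalytic subunit of DNA polymerase δ, by 0.94, *Fen1*, the flap endonuclease of Okazaki fragments, by 1.11 and *Mcm6*, of the replicative helicase, by 0.75. *E2f2*, a factor that activates such genes, had a change of -1.64 with an adjusted p = 0.0502. *Lmnb1*, lamin B1 of the nuclear envelope, fell by 1.28 (adjusted p = 0.0109), with 961, 2401 and 639 at 0 h and 383, 907 and 295 at 4 h. Of 46 measured histone genes, a set chosen after its values were seen, 5 fell (1.83% of all genes tested did) and none rose. The median of the 46 was -0.18. All 5 that fell encode forms of H2A, *H2ac7*, *H2ac24*, *H2ac20*, *H2ac22* and *H2ax*, with changes from -0.99 to -1.51. The first 4 belong to a family of near-identical copies, so one transcript may be read by several of these probes. Without the 4 arrays labelled 0 h none of the mitosis or replication genes passed (for instance *Cdk1* 0.42, *Fen1* 0.136 and *Mcm6* 0.572 as adjusted p), while their changes stayed below 0 at -1.36, -2.16 and -0.63. *Ccnd1* did not pass either (-1.39, 0.482). On the arrays labelled 0 h the median signal of the mitosis list was 9.11, 9.48 and 7.66 on the log2 scale for BeadChips 1, 2 and 3.

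The other genes among the 15 largest falls have various roles. *Tmem86a*, a lysoplasmalogen hydrolase, had the largest, from 4320, 801 and 1380 to 564, 221 and 513 (change -2.07, standard error 0.476, adjusted p = 0.0494). *Fads1*, the Δ5 fatty acid desaturase, went from 4754, 4212 and 1318 to 1016, 1705 and 544 (change -1.60). *Gcnt1* and *St6gal1*, glycosyltransferases that build core-2 O-glycans and add sialic acid, both fell by 1.48, the latter from 844, 336 and 285 to 159, 156 and 151. *Tpcn1*, an endolysosomal cation channel, fell by 1.47, *Plau*, the urokinase plasminogen activator, by 1.41, *Lpar6*, a receptor of lysophosphatidic acid, by 1.24, and *Fam102a* by 1.21. Of these 8 genes *Tmem86a* (adjusted p = 0.0324), *Gcnt1* (0.0121) and *St6gal1* (0.0123) passed without the 4 arrays labelled 0 h. None of 15 genes of cholesterol, LXR and lipid handling and none of 17 of glycolysis and hypoxia passed, with medians of -0.20 and 0.03. At an unadjusted p under 0.05 by limma 3 and 1 of them were lower, and 0 and 2 higher. Of all 8569 genes tested 1179 were lower and 854 higher at that threshold.

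Macrophage markers were present at both times. None of 8 measured markers passed, while 3.8% of all genes tested did, and the changes of the 8 ran from -0.65 to 0.68. Their summed signal ran from 65651 to 77657 on the arrays labelled 0 h and from 59609 to 80134 at 4 h. *Lyz2*, lysozyme, made up a large part of that sum. It was 44443, 51242 and 26882 at 0 h and 36851, 35992 and 19002 at 4 h, lower on each BeadChip. Of 7 measured neutrophil markers only *S100a8*, a calcium-binding alarmin that stimulated macrophages also make, passed, with a rise of 2.38 from 439, 875 and 529 to 3954, 2930 and 2468 (adjusted p = 0.0486). The neutrophil list summed to between 982 and 1795 at 0 h and between 3152 and 4711 at 4 h, but its median change was 0.03. *Camp*, a neutrophil granule gene, was detected on none of the arrays labelled 0 h and had a change of 0.88. The changes of *Mmp9*, *S100a9*, *Elane*, *Ngp* and *Ltf* were 0.45, 0.03, 0.002, -0.04 and -0.14. The part of neutrophils in the rise of *S100a8* was not tested. No marker of B cells (2 measured), dendritic cells (4), mast cells and basophils (3), erythroid cells (1) or fibroblasts (6) passed, and 9 markers of T and NK cells were below the detection filter. In bulk RNA, fewer cells of a type and less RNA per cell cannot be told apart.

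Nearly all the genes that changed without IKKβ moved the same way in wt cells. Of the 169 that rose 167 had a wt change above 0, and of the 157 that fell 155 had one below 0. Across all genes tested the changes of both genotypes correlated at 0.873, and the arrays of both lay on the same BeadChips. The likeness is thus not particular to the genes that passed. In wt BMDMs 233 genes rose (2.72% of genes tested) and 316 fell (3.69%), together 6.41%. These wt counts became 168 and 1259 with each array scaled to its median, 4 genes in all without the block and 0 without replicate 2, and the overlaps that follow hold for the fit with the block alone. The genes that rose in both genotypes numbered 118, which is 69.8% of the IKKβ-deficient and 50.6% of the wt rises, and those that fell in both 96, or 61.1% and 30.4%. No gene passed in opposite directions. The difference between the genotypes in the LPS change passed for no gene (interaction term of limma, lowest adjusted p = 0.9998, and 240 genes at an unadjusted p under 0.05). Over all genes tested the median standard error of that difference was 0.193, so the design could miss moderate ones. For the 50 largest rises the LPS change itself had a median standard error of 0.655, and larger differences could be missed there. *Il1a* changed by 3.84 and 3.85 in IKKβ-deficient and wt cells. *Ptx3* changed by 1.91 and 3.14, a difference of -1.23 (standard error 0.522), and *Tnfsf9* by 1.15 and 1.90, a difference of -0.74 (0.234). *Saa3* changed by 2.34 and 1.48, a difference of 0.85 (0.364), and *Tlr7* by 0.65 and 0.19, a difference of 0.45 (0.156). None of these differences passed.

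**Figure D5:**
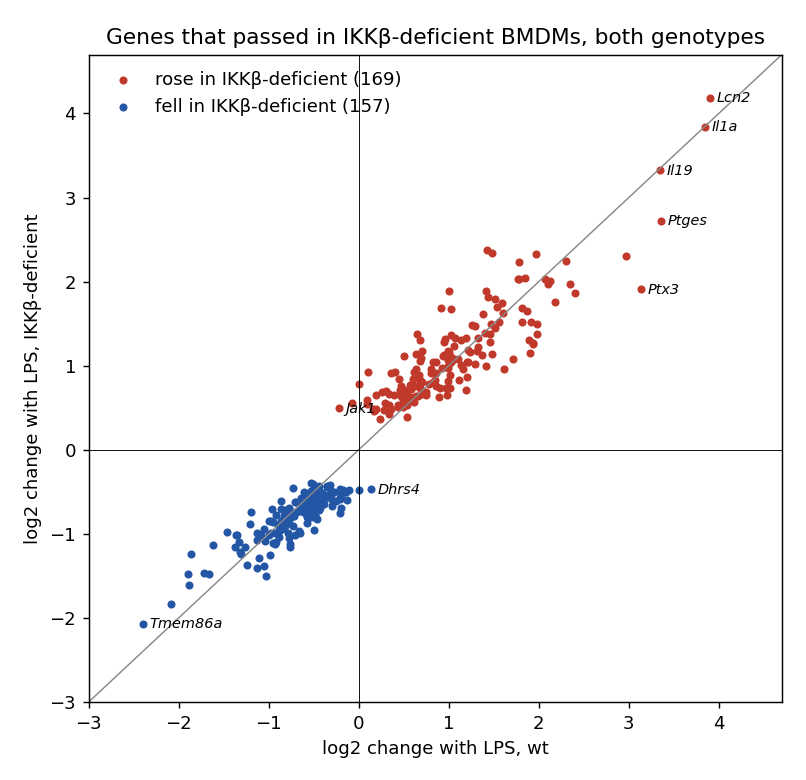
Log2 change with LPS in IKKβ-deficient BMDMs (y axis) against that in wt BMDMs (x axis) for the 169 genes that rose (red) and the 157 that fell (blue) in IKKβ-deficient cells, with the line of equal change in grey. All but 4 genes lie on the same side of 0 in both genotypes.

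At 4 h, *Ikbkb* was the only gene that passed between the genotypes (0.0117% of genes tested), and at 0 h none did by limma (362 at an unadjusted p under 0.05). Its LPS change was 0.18 (standard error 0.156) in IKKβ-deficient and 0.78 in wt cells.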

How the data were processed

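Bone marrow-derived macrophages were profiled on Illumina MouseRef-8 v2 BeadChips. Per the labels and methods, the authors read arrays with BeadStudio 3.1 and deposited an unnormalized intensity for each of 25697 probes, with a detection p-value against control beads. They also deposited intensities quantile-normalized in Partek, version not given in the sources used here, with a median of 93.1 on each array. The platform annotation gave 1 gene symbol to 23978 probes, several to 0 and none to 1719, and 23962 matched the RefSeq gene table, which updated 0.

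Deposited intensities were quantile-normalized over the 12 arrays of the IKKβ experiment with no subtraction of background and then log2-transformed. Probes with a detection p under 0.05 on at least 3 of 12 arrays were kept (12376, of which 715 unnamed), and the brightest stood for each of the 2210 genes with several, leaving 8569 genes. The number of detected probes per array, 10050 to 11511, and of arrays limits the precision. limma 3.58.1 (R 4.3.3, data.table version 1.17.8) fitted the 4 groups with the BeadChip as a fixed block, 2-sided, with 6 residual degrees of freedom. Replicate numbers are BeadChips by the labels, and deviations of same-numbered arrays correlated at 0.424 to 0.925, and all 12 arrays were closest to their own number. A gene that passed but was undetected in a group is given as "at least" its ratio to the lowest detected signals. The methods' t-test, other normalizations, filters and left-out arrays were tried as alternatives. Figures used Python 3.11.15, pandas 2.3.3 and matplotlib 3.10.9.

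Members and lists were chosen with earlier results of these data known. Genes named are the 15 largest rises and 15 largest falls that passed and agreed on all 3 BeadChips, genes the paper names, up to 4 members of each list with the smallest p and the 5 smallest interaction p-values. *Cd69*, *Cxcl10*, *Rsad2*, *Nfkbia*, *Shisa3*, *H2ac20*, *H2ac22* and *H2ax*, and the genes so marked in the text, were chosen after their values were seen. *S100a9*, *Elane* and *Ngp* are given to complete the neutrophil list. *Cebpb*, which the paper names, had a change of 0.74 in IKKβ-deficient cells (limma adjusted p = 0.177) and of 0.89 in wt. *Cebpd*, which the paper also names, was not analysed here.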

Additional observations from a re-analysis of the deposited data

Results flagged for a closer look

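Genes named by the rule were compared between genotypes for changes of opposite direction. In 6 of them every IKKβ-deficient BeadChip moved one way and every wt BeadChip the other, and the interaction term of limma passed for none. The rule names the 5 genes with the smallest interaction p-values, among them *Dhrs4*, *Jak1*, *Ptpn22* and *Lrif1*, so that opposite directions and small p-values there follow from the choice and support nothing. *Dhrs4*, a carbonyl reductase, had a change of -0.47 in IKKβ-deficient cells (adjusted p = 0.0274) and of 0.14 in wt, a difference of -0.61. *Jak1*, a kinase of interferon and interleukin-6 receptors, rose (117, 139 and 214 to 182, 194 and 276, adjusted p = 0.039), and its change was 0.71 higher than in wt. *Lrif1* (difference 0.84) and *Ptpn22*, a phosphatase of immune receptor signaling (0.64), fell in wt and did not pass in IKKβ-deficient cells. *Hk1*, hexokinase 1 (-0.58), and *Itgax*, the integrin CD11c (0.28), passed in neither. Over all genes tested, 68 were higher on all 3 IKKβ-deficient and lower on all 3 wt BeadChips and 36 the reverse, and 2 of these passed in IKKβ-deficient cells. The groups of 3 arrays are too small for a test of single outlying arrays.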

How the results depend on the processing

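The number of genes changed by LPS in IKKβ-deficient BMDMs, 326 with the BeadChip as a block, stayed between 241 and 396 under median scaling (321), the authors' normalized values (326), normexp background (303), no detection filter (256), a filter on IKKβ-deficient arrays (346), every probe (396) and an intensity trend (241). It was 0 without the replicate block (571 at an unadjusted p under 0.05), 151 with it as a random block and 0 on the 6 IKKβ-deficient arrays alone, block kept (1770 unadjusted, 2 residual degrees of freedom). The methods' t-test gave 39 genes at a p of 0.05 and a fold of 2.5 (37 higher, 2 lower, 25 of them among the 326) and 0 after Benjamini-Hochberg. Leaving out replicates or single arrays gave 0 to 569 genes. It gave 569 without replicate 1, 0 without replicate 2 and 2 without replicate 3, and for single arrays 66, 3 and 121 without IKKβ-deficient 0 h replicate 1, 2 or 3 and 48, 5 and 92 without 4 h replicate 1, 2 or 3. Without the arrays labelled 0 h of BeadChips 2 and 3 it was 231. The wt count of 549 became 4 without the replicate block, 298 with a random block and 1427 under median scaling (168 higher, 1259 lower), which moved the median change of all genes from -0.03 to -0.17 in wt and from -0.02 to -0.05 in IKKβ-deficient cells, and 0 to 554 with arrays left out (0 without replicate 2, 38 without replicate 3, 355 without IKKβ-deficient 4 h replicate 3). The cause of these differences was not tested. The interaction count was 0 under every setting run (17 to 588 unadjusted). Among the 326 genes, 1 that rose (*Slc13a3*) and 2 that fell (*Clec10a* and *Rapsn*, all 3 named after their values were seen) had the opposite sign without the arrays labelled 0 h of BeadChips 2 and 3. Of genes named without a call, *Ddit3* (-0.69), *Hk1* (0.52), *Lrif1* (-0.32) and *Ptpn22* (-0.46) changed sign without the arrays labelled 0 h of BeadChips 2 and 3, as did *Cebpe* (0.13, 0.00068 by the methods' t-test, -0.090 to 0.13 with replicates left out).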
